A study of Homo sapiens with 16 samples.

Results

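The genes described are the 32 genes of antigen presentation whose Ensembl identifiers occur among the 60448 genes counted in this series. They were chosen by name, and each of the 32 symbols matched 1 row of the count tables. Of these, 20 were grouped as class I and 12 as class II. The class I group also holds MICA and MICB, stress-induced ligands of a natural killer cell receptor, so counts of class I genes include them. In all, 21 genes lie on chromosome 6 (GRCh38, GENCODE 29), most of them in the major histocompatibility complex (MHC). A filter on low counts kept 29 of the 32 for testing. CD74, CIITA and HLA-DQA1 did not pass it and were tested only in alternative fits.

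RNA was measured in HMLER cells, an established human mammary epithelial line made tumorigenic by TERT, SV40 antigens and mutant HRAS. The 16 libraries fall into 8 groups of 2. C1, C2-Epi and C2-Mes are labelled wild type, as is C1-sgControl, which carries a control guide. C1-sgEED-Epi and C1-sgEED-Mes are labelled EED-KO, and C1-sgKMT2D-Epi and C1-sgKMT2D-Mes are labelled KMT2D-KO. Epi and Mes stand for the epithelial and the mesenchymal state, and all groups share the HMLER background and 1 culture medium. EED is a core subunit of PRC2, which places a repressive methyl mark on histone H3, and KMT2D is a histone H3 methyltransferase tied to active enhancers. Nothing in the labels tells if the pair of libraries in a group came from different cultures, or if a group is 1 clone. The p-values therefore measure only the spread between these libraries, and state and clone cannot be told apart.

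Class I molecules carry peptides from inside the cell to its surface for CD8+ T cells. Proteasomes cut the peptides, the TAP transporter moves them into the endoplasmic reticulum, ERAP enzymes trim them, and a heavy chain bound to beta-2-microglobulin (B2M) is loaded there with the help of tapasin. Class II molecules present peptides taken up from outside to CD4+ T cells, and are usually found on leukocytes or on cells exposed to interferon-gamma. NLRC5 and CIITA are the regulators known to switch on class I and class II genes, and both act through a shared promoter module to which RFX, CREB and NF-Y proteins bind.

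Total counts per library ran from 18872124 to 31950649, both extremes being C2-Mes libraries. Replicates correlated across genes with r of at least 0.988 except in C2-Mes, where r was 0.967, so C2-Mes values are the least precise. CDH1 (E-cadherin) stood at 216 to 386 CPM (counts scaled to library size with TMM factors) in the means of the epithelial groups and at 0.298 to 1.15 CPM in those of the mesenchymal groups, and VIM (vimentin) was 3862 to 5313 CPM in mesenchymal groups against 820.2 to 1971 CPM in epithelial ones. EED was at 5.22 and 5.50 CPM in the C1-sgEED-Mes libraries, at 26.7 and 29.6 CPM in C1-sgEED-Epi and at 26.6 and 21.6 CPM in C1-sgControl. KMT2D stood at 124 and 127 CPM in C1-sgKMT2D-Epi, at 86.6 and 76.8 CPM in C1-sgKMT2D-Mes and at 89.9 and 70.9 CPM in C1-sgControl. Among the groups with a guide against EED or KMT2D, the targeted transcript was below C1-sgControl in both libraries only in C1-sgEED-Mes. The mean of EED was also lower in C2-Mes (11.8 CPM) than in C2-Epi (18.9 CPM). It was 22.95 CPM in C1-sgKMT2D-Mes and 38.2 CPM in C1-sgKMT2D-Epi. Group names here mean libraries so labelled, since counts per gene do not show whether a guide changed the protein. The 18 leukocyte markers summed to 4.33 to 18.9 CPM in 14 libraries and to 55.0 and 58.3 CPM in the C1-sgControl pair, where LAPTM5 alone gave 43.6 and 47.6 CPM. PTPRC, which marks leukocytes, was at 0 in both C1-sgControl and both C1 libraries. MS4A1 and TYROBP, which mark B cells and myeloid cells, were at 0 in all 16 libraries. ITGAM had 34 and 20 counts in C1-sgControl against 16 and 26 in C1, and CD14 9 and 8 against 9 and 5. Of the 5 leukocyte markers tested, 2 were called higher in C1-sgControl than in C1. Besides LAPTM5, ITGAX stood at 4.20 and 3.90 CPM in C1-sgControl against 1.82 and 1.15 CPM in C1, and CSF1R at 5.08 and 5.23 against 7.30 and 6.79 CPM. In bulk RNA, fewer cells expressing a gene and less RNA per cell cannot be told apart.

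Of the 32 genes, 27 have an entry in the RefSeq promoter table (GRCh38.p14); CIITA, CTSS, HLA-DRA, HLA-E and NLRC5 do not. The 200 bases before each start were searched on both strands for 3 motifs. These were the core of the interferon-stimulated response element (ISRE, TTCNNTTTC), the inverted CCAAT box to which NF-Y binds (ATTGG), and a CREB half-site (TGACG). The motifs share no letters in the 6 promoters below, although pairs of ISRE cores overlap each other in B2M and TAP1. The sequences are shown because they belong to the class I chain that changed most in 1 transition (HLA-B), to its partner and transporter (B2M, TAP1), and to 3 class II chains at or near 0 in some groups and measured in others. Each is printed 5′ to 3′ on the strand of the gene and ends at the base before the start, with motif matches in capitals.
HLA-B, chr6:31357180-31357379, minus strand: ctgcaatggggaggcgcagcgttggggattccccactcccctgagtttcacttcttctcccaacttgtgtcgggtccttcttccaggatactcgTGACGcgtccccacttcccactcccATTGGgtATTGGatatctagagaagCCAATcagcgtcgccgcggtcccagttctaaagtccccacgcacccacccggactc
B2M, chr15:44711317-44711516, plus strand: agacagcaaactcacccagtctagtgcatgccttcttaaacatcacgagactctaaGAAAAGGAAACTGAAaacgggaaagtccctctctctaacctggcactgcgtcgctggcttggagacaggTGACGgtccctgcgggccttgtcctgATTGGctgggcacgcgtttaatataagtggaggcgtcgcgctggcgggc
TAP1, chr6:32853705-32853904, minus strand: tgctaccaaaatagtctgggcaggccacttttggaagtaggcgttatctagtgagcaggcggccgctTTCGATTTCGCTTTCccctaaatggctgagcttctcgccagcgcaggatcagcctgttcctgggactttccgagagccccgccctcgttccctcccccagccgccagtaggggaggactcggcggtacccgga
HLA-DRB1, chr6:32589849-32590048, minus strand: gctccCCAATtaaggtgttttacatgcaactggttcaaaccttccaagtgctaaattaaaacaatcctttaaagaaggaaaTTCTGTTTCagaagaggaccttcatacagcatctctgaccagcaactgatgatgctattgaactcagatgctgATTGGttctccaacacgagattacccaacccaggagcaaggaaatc
HLA-DQB1, chr6:32666658-32666857, minus strand: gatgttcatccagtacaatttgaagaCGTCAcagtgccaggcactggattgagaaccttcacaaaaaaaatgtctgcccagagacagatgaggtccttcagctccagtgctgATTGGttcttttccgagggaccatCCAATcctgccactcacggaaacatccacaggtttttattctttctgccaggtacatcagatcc
HLA-DPB1, chr6:33075790-33075989, plus strand: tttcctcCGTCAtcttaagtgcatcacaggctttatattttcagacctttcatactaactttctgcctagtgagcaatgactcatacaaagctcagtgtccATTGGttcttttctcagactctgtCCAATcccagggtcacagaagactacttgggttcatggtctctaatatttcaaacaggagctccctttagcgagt

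The 27 genes have 35 promoters in the table, some genes having several. The ISRE core occurred in 12 of the 35 (34.3%), against 5.45% of all 35116 promoters. They belong to 12 genes, namely HLA-F, HLA-DMB, HLA-DRB1, HLA-DPA1, B2M, TAP1, TAP2, TAPBP, PSMB10, PSME2, ERAP2 and CD74. ATTGG occurred in 16 of the 35 (45.7%, against 28.0% of all promoters) and TGACG in 10 (28.6%, against 18.4%). HLA-B carried TGACG and ATTGG but no match to the letters TTCNNTTTC in this window. B2M carried all 3 motifs, and TAP1 carried only the ISRE core, as a pair that overlaps. HLA-DQB1 and HLA-DPB1 had TGACG (as CGTCA, its reverse complement) and a pair of ATTGG matches each, 1 on either strand. A match is a description of letters and does not show that a factor binds. Variants of these letters were not searched, so the lack of a match does not show that an element is absent.

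Across the 16 libraries the class I genes were abundant and the class II genes scarce. Summed over the 20 class I genes, the level was lowest in C1-sgKMT2D-Epi, at 859.8 and 876.5 CPM, and highest in C1-sgKMT2D-Mes, at 1985 and 1989 CPM. C2-Epi (1075 and 1083 CPM), C1-sgEED-Epi (1099 and 1214 CPM), C1 (1374 and 1369 CPM), C1-sgControl (1486 and 1618 CPM), C2-Mes (1534 and 1566 CPM) and C1-sgEED-Mes (1701 and 1599.5 CPM) lay between. The 12 class II genes together gave 9.25 to 18.7 CPM in the epithelial groups and in C2-Mes, 21.9 and 23.1 CPM in C1-sgKMT2D-Mes, and 32.1 and 36.2 CPM in C1-sgEED-Mes. Per kilobase of exon, B2M (113 CPM per kb) and HLA-C (107 CPM per kb) were the highest of the 32 genes in C1-sgKMT2D-Mes, followed by HLA-E (87.0 CPM per kb) and HLA-B (52.4 CPM per kb).

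**Figure D1:**
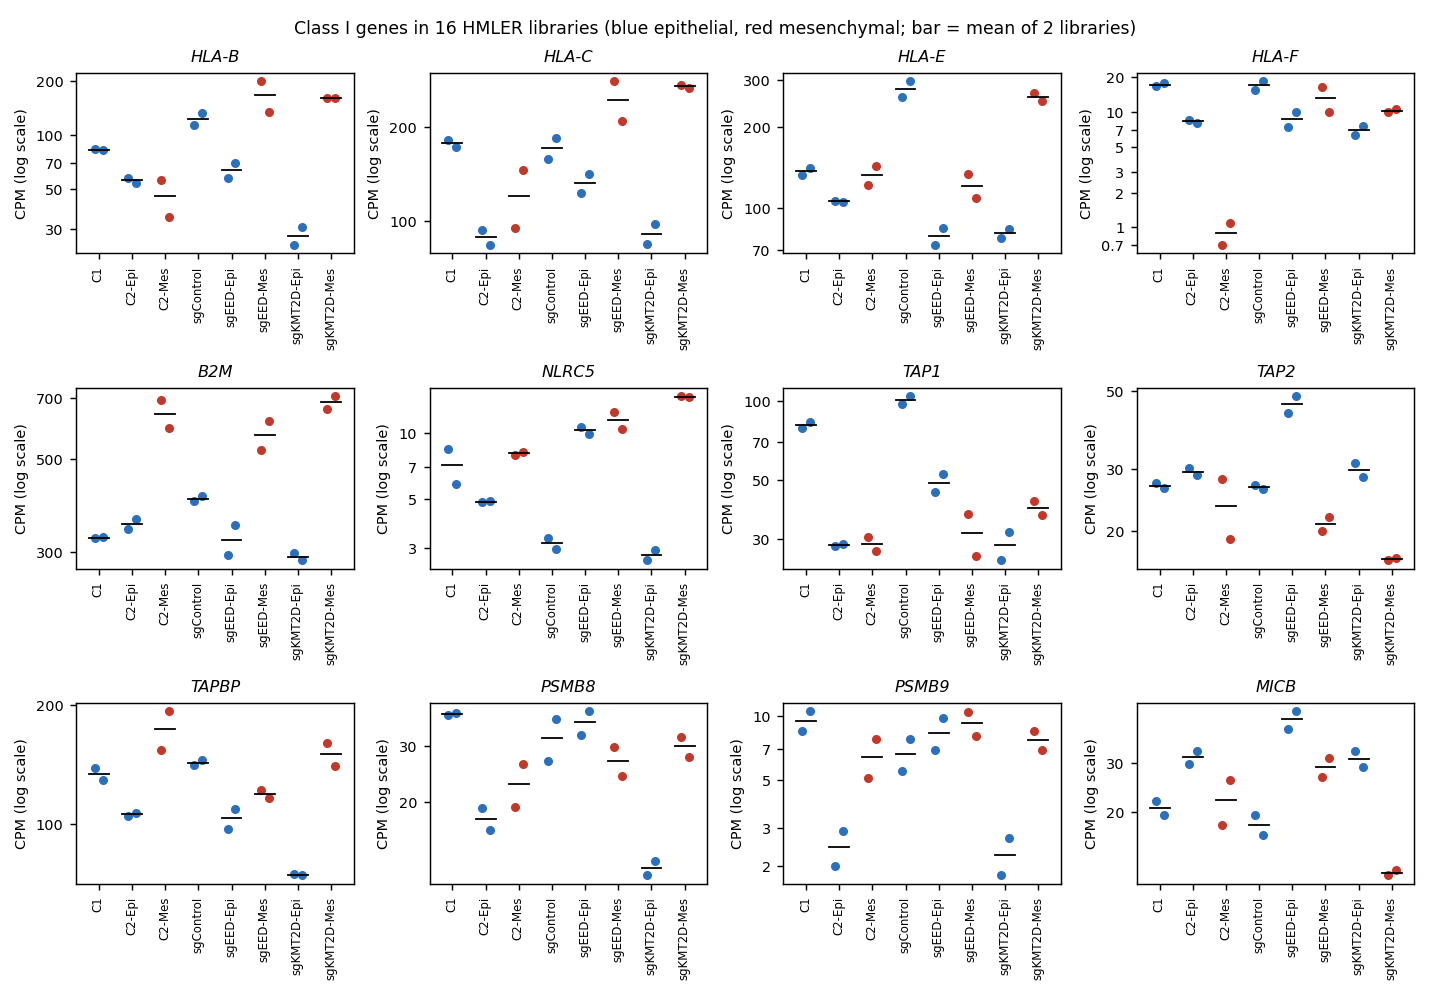
Levels of 12 class I genes in each library, in CPM on a log axis that differs between panels; points are the 2 libraries of a group, bars their mean, blue epithelial and red mesenchymal groups. HLA-B, HLA-C and B2M are higher in C1-sgEED-Mes and C1-sgKMT2D-Mes than in the epithelial cells of the same guide, and HLA-F stands at 0.701 and 1.09 CPM in C2-Mes.

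The first comparison asked how the class I group of genes differs between mesenchymal and epithelial cells with the guide against KMT2D. Of 20 class I genes 15 rose, 3 fell and 2 did not pass the test, with a median log2 change of 1.04 against 0.02 over all genes tested. Over all 29 members 19 rose and 4 fell, where 26.8% of all 18285 tested genes were called higher and 24% lower. The genes that rose include heavy chains, B2M, loading and trimming genes, the immunoproteasome and NLRC5. The 3 that fell were TAP2, MICA and MICB.

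HLA-B, a classical heavy chain that presents to T cells, was at 24.4 and 30.7 CPM in C1-sgKMT2D-Epi and at 160.1 and 159.8 CPM in C1-sgKMT2D-Mes. The groups did not overlap, and the rise was 5.81-fold (log2 2.54 ± 0.24 SE, adjusted p = 1.0e-06). HLA-C, the other classical chain in the list, went from 84.8 and 97.5 to 272.0 and 264.6 CPM (2.94-fold, adjusted p = 1.9e-05). HLA-E, which presents leader peptides to the inhibitory receptor NKG2A of natural killer (NK) cells, went from 77.8 and 83.6 to 268.3 and 249.6 CPM (3.21-fold, adjusted p = 6.2e-07). Both mesenchymal libraries lay above both epithelial ones for each of these chains. B2M, the light chain that all of them need, rose 2.34-fold, from 299.1 and 287.2 to 660.6 and 709.0 CPM (adjusted p = 4.5e-06). HLA-F, a chain that can reach the surface without peptide, stood at 6.34 and 7.49 CPM and at 9.91 and 10.6 CPM (adjusted p = 0.061). HLA-G, known from the placenta, stayed at or below 0.484 CPM in every library of the series, and its change here did not pass either (adjusted p = 0.20).

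NLRC5, the class I transactivator on chromosome 16, showed the second largest rise among the class I genes in this comparison. It was at 2.62 and 2.91 CPM in C1-sgKMT2D-Epi and at 14.8 and 14.6 CPM in C1-sgKMT2D-Mes, a 5.32-fold difference (log2 2.41 ± 0.20 SE, adjusted p = 3.3e-07). All 5 genes of the immunoproteasome, the form of the proteasome induced by interferon, rose. The catalytic subunit PSMB10 went from 1.06 and 1.39 to 5.02 and 4.64 CPM (3.93-fold). PSMB9 rose 3.42-fold, from 1.81 and 2.71 to 8.45 and 6.96 CPM, and PSMB8 rose 2.39-fold, from 11.9 and 13.1 to 31.96 and 27.75 CPM. The activator subunits PSME1 (29.6 and 33.4 to 59.6 and 56.7 CPM) and PSME2 (36.5 and 38.0 to 58.6 and 63.1 CPM) rose 1.85-fold and 1.63-fold, and adjusted p-values of the 5 ran from 1.3e-04 to 1.4e-03. Among 16 other proteasome genes 10 were lower, 0 higher and 6 did not pass. Most of them are shared by both forms or are regulators. PSMA7 (2.62-fold lower), PSME3 (2.62-fold lower), PSME4 (2.40-fold lower) and PSMA3 (2.06-fold lower) changed most. Of the catalytic subunits specific to the constitutive form, PSMB5 was at 99.6 and 118 CPM in C1-sgKMT2D-Epi against 96.8 and 91.3 CPM in C1-sgKMT2D-Mes. PSMB6 was at 51.5 and 61.9 against 53.9 and 48.5 CPM, and PSMB7 at 164 and 170 against 89.2 and 87.4 CPM.

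Peptide loading was split. TAPBP (tapasin) rose 2.03-fold, from 74.5 and 73.9 to 160.6 and 140.3 CPM, and its relative TAPBPL, which edits bound peptides, rose 2.51-fold from 0.886 and 1.35 to 2.64 and 2.98 CPM. The trimming enzymes ERAP1 (1.88-fold, from 24.4 and 23.2 to 44.5 and 44.9 CPM) and ERAP2 (2.02-fold, from 76.4 and 70.3 to 144.6 and 152.3 CPM) rose as well. The genes of the 2 transporter chains diverged. TAP2 fell 1.80-fold, from 31.2 and 28.4 to 16.5 and 16.7 CPM (adjusted p = 8.8e-04). TAP1 was at 24.9 and 31.9 against 41.6 and 36.8 CPM (1.38-fold higher, adjusted p = 0.043), a call lost with no low-count filter (adjusted p = 0.16), with the correction for GC content and length (adjusted p = 0.076) and without any 1 of its 4 libraries. MICA and MICB, stress-induced ligands of the activating NK receptor NKG2D, fell 1.41-fold and 2.57-fold. MICB went from 33.2 and 29 to 11.8 and 12.4 CPM, and MICA from 18.4 and 20.4 to 12.9 and 14.6 CPM. Leukocyte markers summed to 6.84 and 7.93 CPM in C1-sgKMT2D-Epi and to 4.60 and 4.33 CPM in C1-sgKMT2D-Mes.

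With the guide against EED fewer class I genes differed between states. Of 20, 6 rose, 4 fell and 10 did not pass (median log2 0.25 against 0.01 over all genes). Over all members 12 of 29 rose and 5 fell, where 19.2% of all genes were called higher and 17.3% lower. The genes that rose were heavy chains, B2M and ERAP1, and none of the 5 immunoproteasome genes passed in either direction. HLA-B was at 57.6 and 69.6 CPM in C1-sgEED-Epi and at 199.1 and 134.0 CPM in C1-sgEED-Mes (2.62-fold, log2 1.39 ± 0.23 SE, adjusted p = 2.6e-04). HLA-C rose 1.84-fold from 123 and 141 to 279 and 208 CPM, and HLA-E rose 1.54-fold from 72.8 and 84.7 to 133 and 109 CPM. The mesenchymal libraries were higher throughout, although C1-sgEED-Mes replicate 1 exceeded replicate 2 for all 3 chains. HLA-G was called higher (adjusted p = 0.023) at levels of 0.114 and 0.0702 against 0.326 and 0.484 CPM, all near 0. B2M rose 1.78-fold (adjusted p = 2.2e-04) from 295.0 and 348.6 to 526.2 and 617.1 CPM, and ERAP1 rose 1.48-fold from 39.2 and 38.9 to 55.3 and 60.5 CPM.

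Both TAP genes were called lower in C1-sgEED-Mes. TAP1 was at 45.2 and 52.6 against 37.3 and 25.9 CPM (1.55-fold lower, adjusted p = 0.013), and TAP2 was at 43.1 and 48.3 against 20.0 and 21.9 CPM (2.18-fold lower, adjusted p = 1.2e-04). The TAP1 call was lost when only these 2 groups were fitted and without replicate 2 of either group. NLRC5 did not pass the test, with 10.7 and 9.97 CPM in C1-sgEED-Epi and 12.5 and 10.4 CPM in C1-sgEED-Mes (log2 0.15 ± 0.18 SE, adjusted p = 0.57). MICA fell 1.59-fold, from 15.99 and 18 to 11.1 and 10.2 CPM. MICB fell 1.49-fold, from 39.9 and 46.1 to 26.7 and 31.2 CPM.

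In the unedited C2 cells 7 class I genes rose, 2 fell and 11 did not pass (median log2 0.34 against 0.01). Over all members 9 of 29 rose and 6 fell, where 21% of all genes were called higher and 18.6% lower. B2M rose 1.83-fold, from 341.3 and 360.2 to 693.1 and 593.6 CPM, which was a rise in each of the 3 transitions. HLA-B (57.5 and 54.2 against 56.2 and 34.7 CPM), HLA-C (93.8 and 83.7 against 95.2 and 145.0 CPM) and HLA-E (106.6 and 105.5 against 121.8 and 143.7 CPM) did not pass. HLA-F fell 8.87-fold, from 8.56 and 7.99 CPM to 0.701 and 1.09 CPM (log2 -3.15 ± 0.29 SE, adjusted p = 1.1e-06). In no other group was HLA-F below 6.34 CPM. Part of its exons (28.5%) overlaps genes on the opposite strand, including HLA-F-AS1, and the strand setting of the counts is not given in the sources used here.

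The other class I genes that rose in C2-Mes did so by smaller amounts. PSMB9 rose 2.66-fold (1.99 and 2.92 to 5.14 and 7.76 CPM), PSMB10 2.32-fold (1.01 and 0.692 to 1.17 and 2.65 CPM), and NLRC5 1.67-fold (4.84 and 4.88 to 7.95 and 8.24 CPM). TAPBP rose 1.65-fold, from 104.7 and 106.4 to 154.0 and 193.3 CPM. ERAP1 rose 1.60-fold, from 28.2 and 30.8 to 46.6 and 47.6 CPM, and ERAP2 1.44-fold, from 89.99 and 95.85 to 131.8 and 136.7 CPM. MICB fell 1.42-fold, from 29.7 and 33.2 to 18.0 and 26.1 CPM, while MICA stood at 21.9 and 22.4 against 20.5 and 23.2 CPM (adjusted p = 0.94). Of the 15 members called, a fit of the 4 C2 libraries alone kept 5, namely B2M, HLA-F, HLA-DPB1, HLA-DQB1 and CTSS. Without C2-Epi replicate 1 the count was 9, and without 1 C2-Mes library it was 17 or 12.

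**Figure D2:**
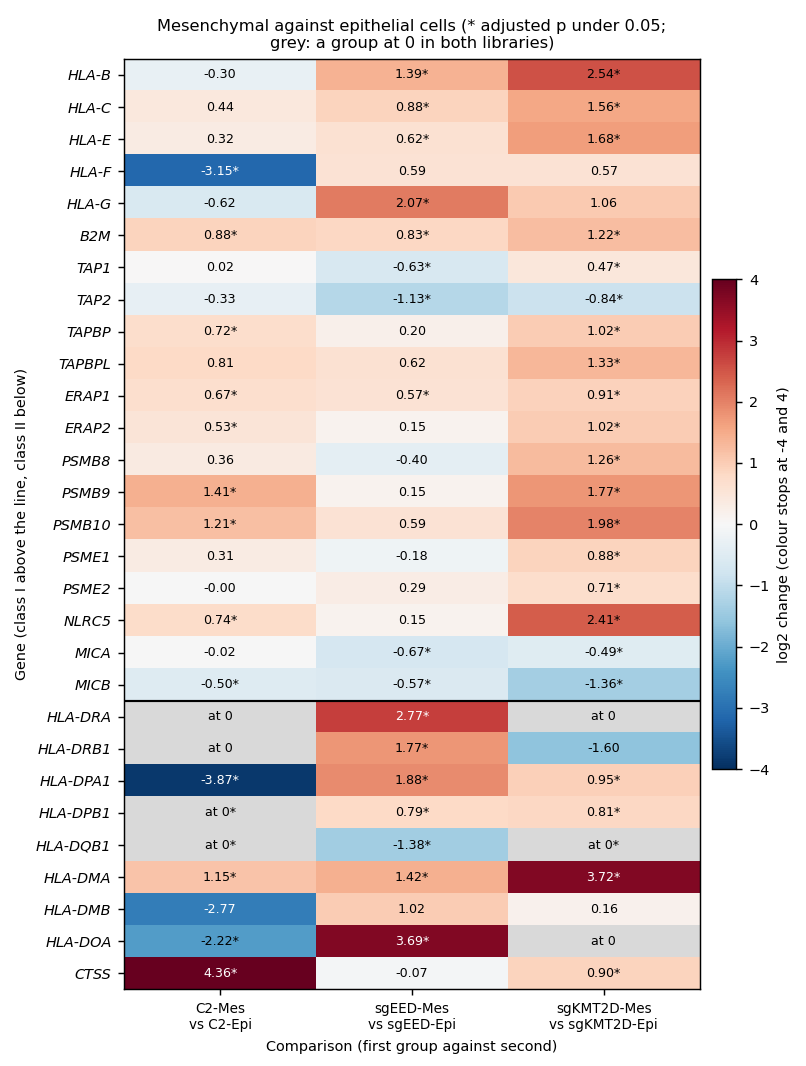
Log2 change of the 29 tested genes between mesenchymal and epithelial cells in the unedited C2 cells and with the guides against EED and KMT2D; red is higher in mesenchymal cells, an asterisk marks an adjusted p under 0.05, and grey cells have a group at 0 in both libraries. B2M, ERAP1 and HLA-DMA carry a positive, called value in all 3 columns, and MICB a negative one.

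The 3 transitions use different libraries, and the differences between them were tested as interactions. Between the KMT2D and the C2 transitions 12 members differed, of which 10 were higher with KMT2D (24.1% of all genes were called in either direction). Among class I genes these were HLA-F (log2 difference 3.72), HLA-B (2.84), NLRC5 (1.67), HLA-E (1.36), HLA-C (1.12), PSMB8 (0.89) and PSME2 (0.71), with MICB (-0.86) the other way. Between the KMT2D and the EED transitions 11 differed, 10 of them higher with KMT2D (20.1% of all genes called). Among class I genes the largest difference was that of NLRC5 (log2 2.26 ± 0.27 SE, adjusted p = 5.6e-05), followed by PSMB8 (1.65), PSMB9 (1.625), HLA-B (1.15), TAP1 (1.10), PSME1 (1.07), HLA-E (1.06), ERAP2 (0.87) and TAPBP (0.81). The difference of the EED and the C2 transitions was called for 10 members (21.1% of all genes called), of which HLA-F (3.74), HLA-B (1.69), TAP2 (-0.79), PSMB9 (-1.26) and MICA (-0.65) are class I genes. The fall of HLA-F in C2 cells thus differed from both other transitions.

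HLA-DPA1 and HLA-DPB1 encode the 2 chains of HLA-DP. Per kilobase of exon, HLA-DPB1 was the highest of the HLA-D genes in every group except C2-Mes, from 1.33 CPM per kb in C2-Epi to 4.53 CPM per kb in C1-sgEED-Mes. In C2-Epi HLA-DPB1 was at 4.01 and 3.42 CPM (111 and 89 counts), and in C2-Mes at 0 counts in both libraries, at least 27.4-fold lower given a floor of 3 counts per library (adjusted p = 1.7e-08). HLA-DPA1 went from 1.77 and 1.499 CPM to 0.292 and 0 CPM (log2 -3.87 ± 0.60 SE, adjusted p = 1.3e-04). HLA-DQB1, the beta chain of HLA-DQ, went from 1.45 and 1.42 CPM (40 and 37 counts) to 0 counts in both, at least 10.6-fold lower (adjusted p = 1.6e-05). The HLA-DP and HLA-DQ chains measured above 1 CPM in C2-Epi were therefore at or near 0 in C2-Mes. Of the 9 class II genes tested, 4 fell, 2 rose and 3 did not pass in this comparison. Over all genes tested, 18.6% were called lower and 21% higher. HLA-DOA, a chain that restrains HLA-DM, was the fourth to fall, from 0.650 and 0.576 to 0.234 and 0.0639 CPM.

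The 2 genes that rose in C2-Mes act in processing. CTSS, which encodes cathepsin S, the protease that cuts the invariant chain, went from 0.397 and 0.154 to 5.55 and 6.04 CPM (20.5-fold, log2 4.36 ± 0.33 SE, adjusted p = 1.1e-07). HLA-DMA, a chain of the peptide-exchange factor HLA-DM, went from 1.23 and 1.84 to 3.16 and 3.64 CPM (2.23-fold, adjusted p = 9.7e-03). HLA-DMB, its partner chain, was at 0.0723 and 0.269 against 0 and 0.0319 CPM (adjusted p = 0.16).

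In C1-sgEED-Mes the HLA-DP chains were at their highest. HLA-DPB1 was at 7.31 and 7.30 CPM in C1-sgEED-Epi and 12.2 and 13.1 CPM in C1-sgEED-Mes (1.73-fold, adjusted p = 4.2e-03), and HLA-DPA1 at 2.06 and 2.46 against 8.34 and 8.32 CPM (3.68-fold, adjusted p = 6.2e-04). The HLA-DR chains exceeded 1 CPM in both libraries of this group and in no other library. HLA-DRA, the invariant alpha chain of HLA-DR, was at 0.0762 and 0.246 CPM (2 and 7 counts) in C1-sgEED-Epi and at 1.27 and 1.01 CPM (35 and 23 counts) in C1-sgEED-Mes (adjusted p = 5.6e-03). HLA-DRB1 was at 0.305 and 0.842 against 2.58 and 1.36 CPM (3.41-fold, adjusted p = 0.047). The DESeq2 Wald test did not call either HLA-DR chain (adjusted p = 0.088 for HLA-DRA and 0.18 for HLA-DRB1), and the HLA-DRB1 call was also lost without any 1 of the 4 libraries. HLA-DQB1 moved against them, from 2.06 and 3.05 to 1.197 and 0.748 CPM (log2 -1.38 ± 0.35 SE, adjusted p = 8.2e-03).

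HLA-DMA rose 2.67-fold in C1-sgEED-Mes, from 1.37 and 1.65 to 4.64 and 3.43 CPM, and HLA-DOA was called higher at 0.0381 and 0 against 0.363 and 0.220 CPM. HLA-DMB stood at 0.762 and 0.983 against 2.29 and 1.23 CPM without passing (adjusted p = 0.19), and CTSS at 2.13 and 2.14 against 2.18 and 1.89 CPM (adjusted p = 0.88). In all, 6 class II genes rose, 1 fell and 2 did not pass (median log2 1.42 against 0.01 over all genes). Of all genes tested, 19.2% were called higher and 17.3% lower. The leukocyte markers summed to 9.98 and 10.95 CPM in C1-sgEED-Epi and to 5.26 and 7.18 CPM in C1-sgEED-Mes, with 9 and 12 of the 18 at 0 in the latter. In counts, CSF1R went from 154 and 174 to 55 and 48, and LAPTM5 from 77 and 105 to 73 and 104. PTPRC had 3 and 0 counts against 3 and 1. Whether leukocytes contributed to the class II levels was not tested.

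In C1-sgKMT2D-Mes 4 of the 9 class II genes rose, 1 fell and 4 did not pass. Over all genes tested, 26.8% were called higher and 24% lower. HLA-DMA had the largest change of any member in this transition whose groups were both above 0, from 0.461 and 0.518 to 6.78 and 6.17 CPM (13.1-fold, log2 3.72 ± 0.36 SE, adjusted p = 1.4e-06). HLA-DPB1 rose 1.76-fold, from 4.47 and 4.82 to 7.61 and 8.71 CPM, and HLA-DPA1 1.93-fold, from 2.16 and 1.95 to 4.02 and 3.94 CPM. CTSS rose 1.87-fold, from 1.81 and 2.07 to 4.18 and 3.06 CPM. The HLA-DPA1 call was lost without any 1 of the 4 libraries. The CTSS call was lost without replicate 1 of either group, and the HLA-DPB1 call without C1-sgKMT2D-Mes replicate 2. HLA-DQB1 was low in C1-sgKMT2D-Epi, at 0.213 and 0.159 CPM (6 and 4 counts). It was at 0 in both C1-sgKMT2D-Mes libraries, at least 1.45-fold lower. HLA-DRA, HLA-DRB1, HLA-DMB and HLA-DOA stayed at or below 0.0837 CPM in both groups and did not pass.

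CIITA and CD74 remained scarce wherever class II chains were seen. CIITA, on chromosome 16, was at 0.943 and 0.352 CPM (26 and 8 counts) in C1-sgEED-Mes, at 0 in both C1-sgEED-Epi libraries, and at or below 0.251 CPM in every other library. The mean in C1-sgEED-Mes was at least 5.90-fold above the floor of C1-sgEED-Epi. With no low-count filter CIITA and CD74 were called higher in C1-sgEED-Mes than in C1-sgEED-Epi and than in C1-sgKMT2D-Mes. CIITA was also called in the first of these in 3 of the 4 fits that left out 1 library. CD74, the invariant chain that escorts class II molecules, was highest in the same group at 0.218 and 0.308 CPM (6 and 7 counts), and at or below 0.123 CPM in all other libraries. HLA-DQA1, the alpha chain of HLA-DQ, had counts above 0 only in C1-sgEED-Mes, at 0.0363 and 0.0880 CPM.

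**Figure D3:**
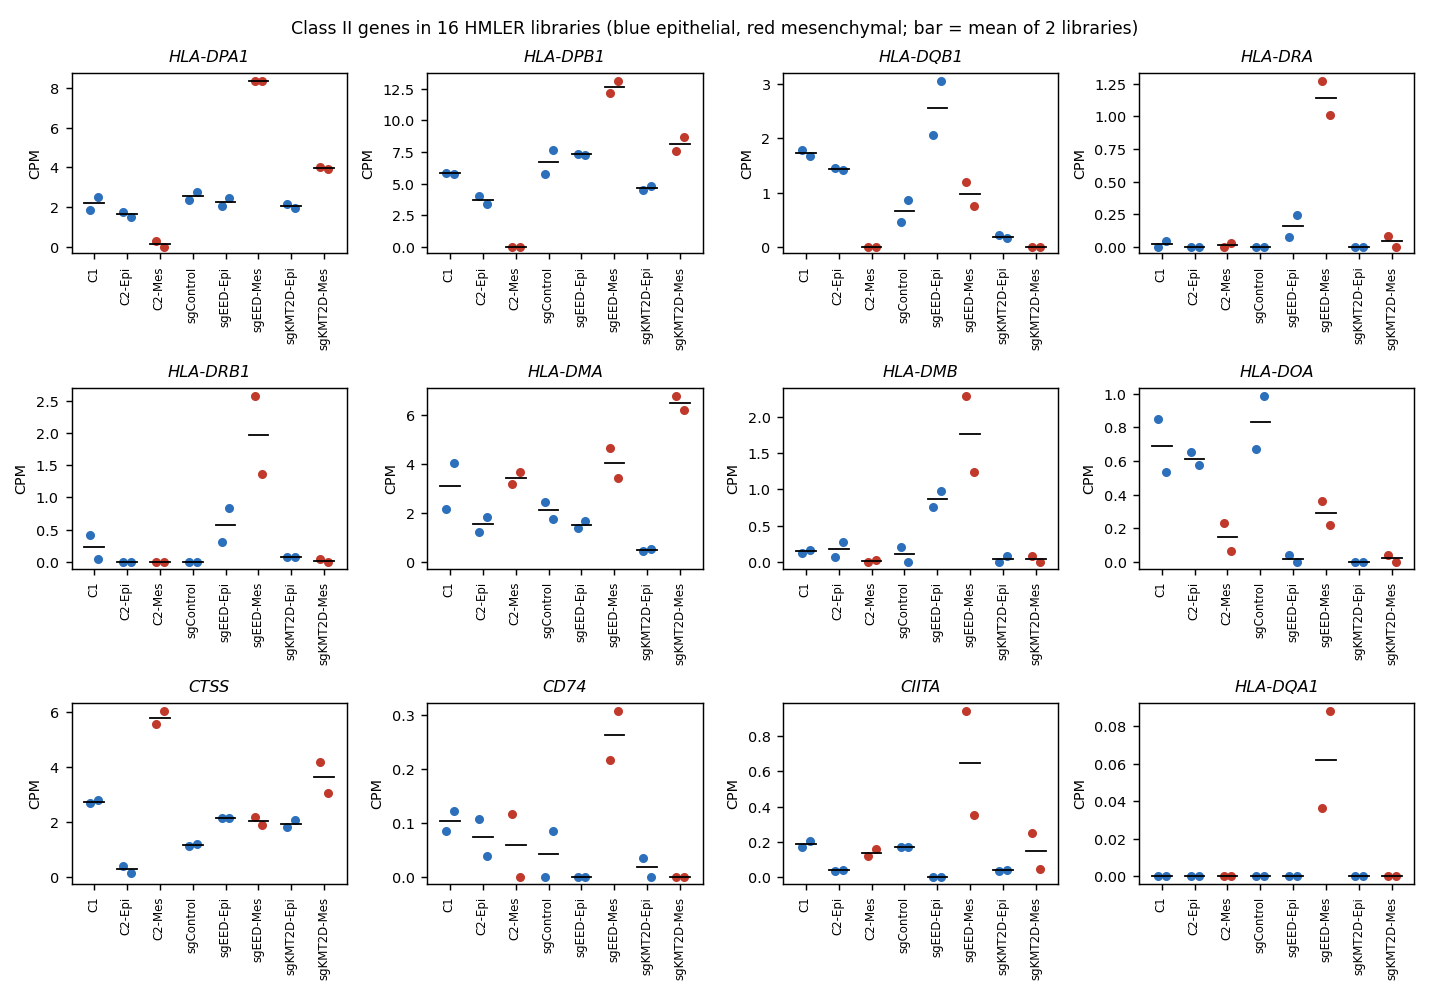
Levels of the 12 class II genes in each library, in CPM on linear axes that differ between panels; points are the 2 libraries of a group, bars their mean, blue epithelial and red mesenchymal groups. HLA-DPB1 and HLA-DQB1 lie at 0 in C2-Mes, and HLA-DRA and HLA-DRB1 exceed 1 CPM in the C1-sgEED-Mes pair alone.

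Interactions of the class II genes followed these levels. HLA-DPA1 differed from the C2 transition by log2 5.75 with EED and 4.82 with KMT2D, sizes that rest on 5 and 0 counts in C2-Mes. HLA-DPB1 was called in both, with a size that depends on the prior count because C2-Mes was at 0. CTSS differed by log2 -4.42 and -3.45 in the same tests. HLA-DMA rose more with KMT2D than in C2 (log2 difference 2.56) and than with EED (2.30 ± 0.48 SE, adjusted p = 3.9e-03).

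The mesenchymal groups were also compared directly. Between C1-sgEED-Mes and C1-sgKMT2D-Mes 9 members were higher and 2 lower (17.7% and 13.4% of all genes), and 7 of the 9 were class II genes. HLA-DPA1 was 2.09-fold and HLA-DPB1 1.55-fold higher in C1-sgEED-Mes, and HLA-DQB1 at least 7.58-fold higher. The HLA-DPA1 call was lost without any 1 of the 4 libraries, and the HLA-DPB1 call with no low-count filter, with the correction for GC content and length, and without any library other than C1-sgEED-Mes replicate 1. HLA-E (2.14-fold) and CTSS (1.78-fold) were lower there, and MICB was 2.39-fold higher. The CTSS call was lost without any library other than C1-sgKMT2D-Mes replicate 2. HLA-B (log2 0.06 ± 0.22 SE, adjusted p = 0.88) and HLA-C (-0.14 ± 0.19 SE, adjusted p = 0.63) did not pass. Against C2-Mes 10 members were higher and 4 lower in C1-sgEED-Mes (21.7% and 20.2% of all genes), and 9 higher and 4 lower in C1-sgKMT2D-Mes (16.2% and 17.2%). HLA-F was higher than in C2-Mes by log2 3.81 and 3.46, HLA-B 3.67-fold and 3.53-fold, and HLA-DPB1 at least 93.2-fold and 60.2-fold. A fit of the compared groups alone kept 5 of the 13 calls between C1-sgKMT2D-Mes and C2-Mes. With the correction for GC content and length, the share of all called genes that were higher went from 56.8% to 46.1% between C1-sgEED-Mes and C1-sgKMT2D-Mes, and from 51.9% to 41.7% between C1-sgEED-Mes and C2-Mes.

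The epithelial groups also differed from each other. Against C1-sgControl, 16 of 29 members were lower and 3 higher in C1-sgKMT2D-Epi, where 30.7% of all genes were called lower and 25.3% higher. HLA-B, HLA-C, HLA-E, HLA-F and B2M all fell, with HLA-B (4.47-fold lower, from 113.7 and 132.4 CPM in C1-sgControl, adjusted p = 5.5e-06) ahead of HLA-E (3.44-fold, from 258.6 and 296.5 CPM) and HLA-F (2.46-fold, from 15.5 and 18.5 CPM). The B2M call was lost with no low-count filter, with C1 as the control, without C1-sgControl replicate 2 and without either C1-sgKMT2D-Epi library. TAP1 was 3.54-fold lower (96.85 and 104 CPM in C1-sgControl), and PSMB8, PSMB9, PSME1 and PSME2 fell 2.53-fold, 2.96-fold, 2.7-fold and 1.43-fold. NLRC5 did not pass, at 3.32 and 2.96 CPM in C1-sgControl (adjusted p = 0.48). With C1 as the control NLRC5 was called, as were ERAP1 and MICA. The group means of NLRC5 were 2.77 CPM in C1-sgKMT2D-Epi and 7.17 CPM in C1. ERAP2, MICB and CTSS were the 3 genes higher than in C1-sgControl, at 1.59-fold, 1.73-fold and 1.66-fold. With the correction for GC content and length 14 members were called, and HLA-C, ERAP2 and CTSS changed sign.

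In C1-sgEED-Epi 10 members were higher and 8 lower than in C1-sgControl (24.3% and 24.6% of all genes). HLA-E fell 3.52-fold, TAP1 2.05-fold, HLA-F 1.95-fold, HLA-B 1.93-fold, PSME1 1.68-fold and TAPBP 1.39-fold. NLRC5 rose 3.29-fold (log2 1.72 ± 0.20 SE, adjusted p = 1.4e-05), MICB 2.39-fold, ERAP2 2.07-fold, ERAP1 1.99-fold and TAP2 1.72-fold. HLA-DQB1 rose 3.87-fold from 0.462 and 0.857 CPM, and HLA-DRB1 was at least 4.51-fold above C1-sgControl, where it was at 0. HLA-DOA fell from 0.671 and 0.985 CPM in C1-sgControl to 0.0381 and 0 CPM. C1-sgControl is the group with the highest LAPTM5, and the part of that in these results was not tested. The correction for GC content and length lost the calls of HLA-B, HLA-G, TAPBP, ERAP1, ERAP2 and CTSS. With C1 as the control in its place, 9 members were called in C1-sgEED-Epi and 19 in C1-sgKMT2D-Epi. ERAP2 and CTSS changed sign in both, and in C1-sgEED-Epi NLRC5 (adjusted p = 0.055), HLA-DQB1 (adjusted p = 0.24), HLA-B, HLA-G, TAPBP, ERAP1, HLA-DRA and HLA-DRB1 did not pass either.

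C1-sgControl itself differed from C1 in 7 members, with HLA-E (2.03-fold) and MICA (1.46-fold) higher (13.3% of all genes were) and ERAP1, ERAP2, NLRC5, HLA-DQB1 and CTSS lower (13.8% of all genes). NLRC5 was at 8.49 and 5.85 CPM in C1 and 2.28-fold lower in C1-sgControl. The 2 guides also differed in epithelial cells. C1-sgEED-Epi had 13 members higher and 0 lower than C1-sgKMT2D-Epi, where 12.9% of all genes were higher and 4.61% lower. PSMB9 (3.70-fold), NLRC5 (3.73-fold), HLA-DMA (3.08-fold), PSMB8 (2.83-fold) and HLA-B (2.31-fold) were among them. Of all called genes in that comparison 73.7% were higher, a share that became 47.4% with the correction for GC content and length and 62.2% with no low-count filter, and the first of these moved the median of all genes from 0.05 to -0.06 in log2. Under the correction 13 members were called, 11 higher and 2 lower, and 10 of them were shared.

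C2-Epi compared with C1 showed 11 members lower and 2 higher (18.3% and 12.4% of all genes). PSMB9 (3.87-fold, from 8.44 and 10.5 CPM in C1), PSMB10 (3.06-fold), TAP1 (2.85-fold), PSMB8 (2.12-fold), HLA-F (2.08-fold), HLA-C (1.99-fold), NLRC5 (1.47-fold) and PSME1 (1.39-fold) were the class I genes lower in C2-Epi. CTSS was 9.64-fold lower, from 2.67 and 2.78 CPM in C1, HLA-DMA 2.01-fold and HLA-DPB1 1.56-fold. MICA (1.49-fold) and MICB (1.52-fold) were higher. Of all called genes 40.4% were higher, against 55.3% with the correction for GC content and length and 51.3% with no low-count filter.

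**Figure D4:**
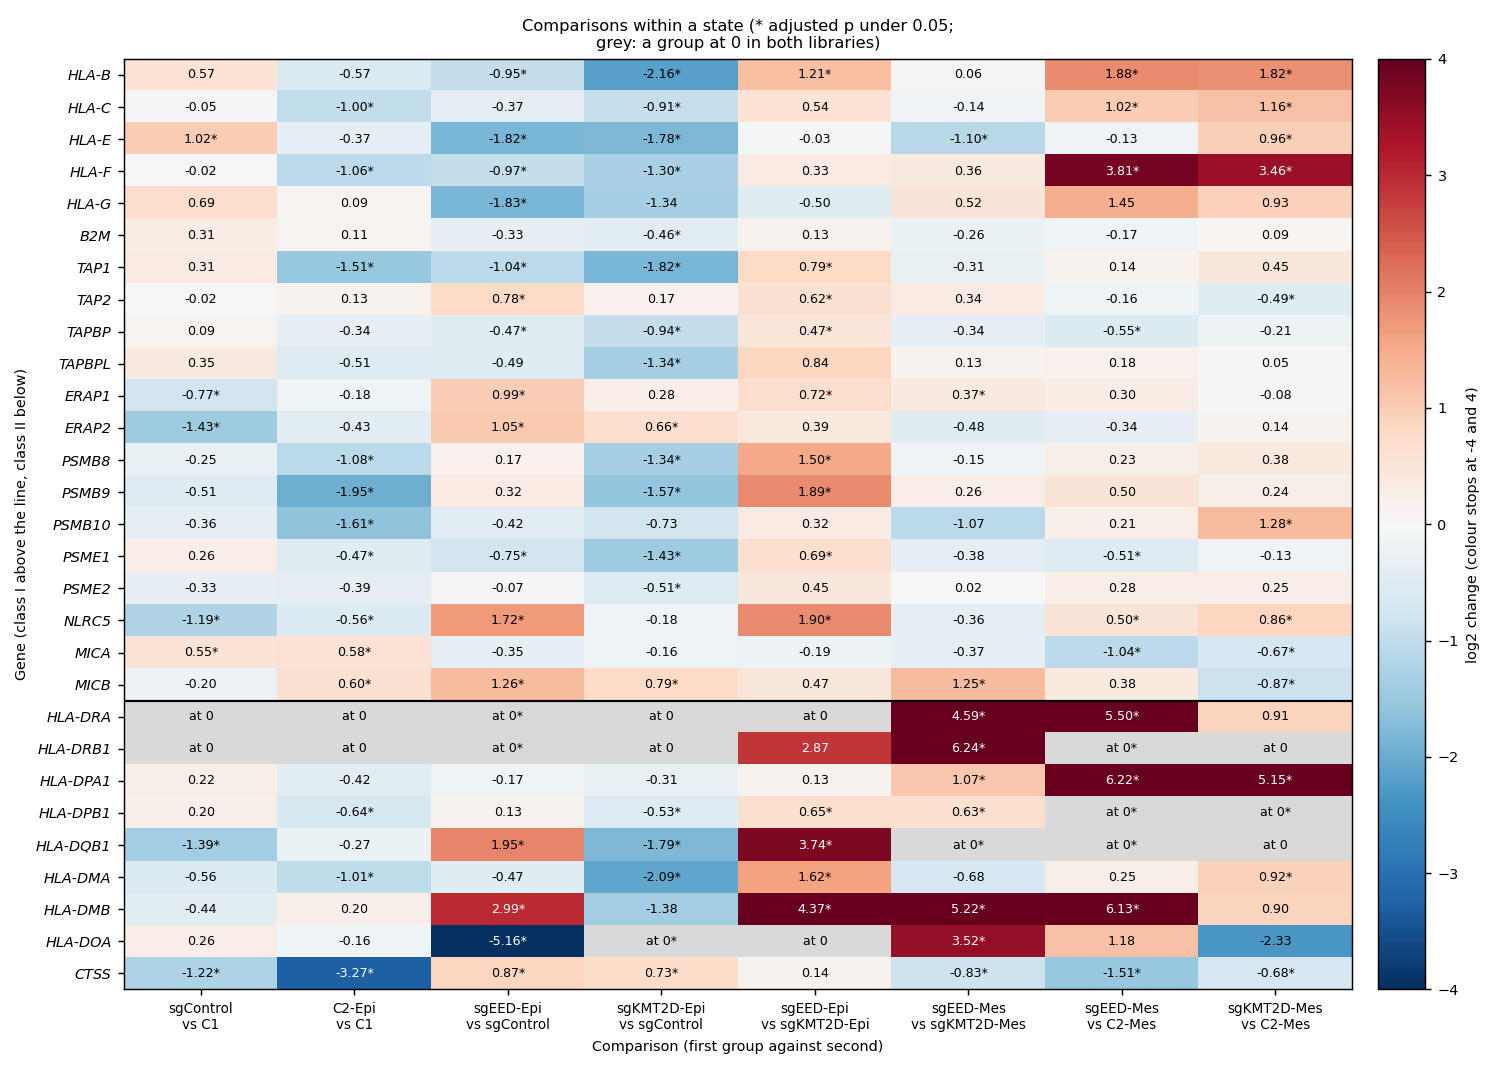
Log2 change of the 29 tested genes in the 8 comparisons made within a state, first group against second; an asterisk marks an adjusted p under 0.05 and grey cells have a group at 0 in both libraries. The C1-sgKMT2D-Epi column against C1-sgControl is negative for most class I genes, and HLA-F is positive in both columns against C2-Mes.

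The genes around the pathway were counted in lists. Of 23 tested interferon-stimulated genes, 22 rose with KMT2D (median log2 4.75), 17 rose and 2 fell with EED (1.67), and 15 rose and 2 fell in C2 (1.70). Over all genes tested, 26.8% were called higher and 24% lower with KMT2D, 19.2% and 17.3% with EED, and 21% and 18.6% in C2. A link between these genes and the class I genes was not tested. With KMT2D, MX2, an antiviral GTPase, went from 0.0177 to 8.01 CPM in the group means, and IFITM1, which restricts viral entry, from 0.0576 to 11.4 CPM. IFI44L rose 75.3-fold in C2 and 19.8-fold with EED. In epithelial cells 4 rose and 12 fell in C1-sgKMT2D-Epi against C1-sgControl, and 8 rose and 4 fell in C1-sgEED-Epi. Among 19 interferon receptors, kinases and factors, 13 rose and 2 fell with KMT2D, led by STAT2 (4.85-fold), IRF9 (3.76-fold) and IRF7 (3.45-fold), parts of the type I interferon signal. With EED 7 rose and 1 fell, and in C2 8 rose and 1 fell. JAK2 rose 3.95-fold in C2 and 3.06-fold with EED, and IFNLR1, the receptor of interferon lambda, fell in all 3, by 11.47-fold in C2, 2.83-fold with EED and 4.89-fold with KMT2D. In the epithelial comparisons with C1-sgControl 3 rose and 2 fell for EED, and 3 rose and 5 fell for KMT2D.

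Of 9 promoter factors of MHC genes, 1 rose and 3 fell in C2, 1 rose and 1 fell with EED, and 2 fell with KMT2D. NFKB1, a subunit of NF-kB, was lower in all 3 (2.51-fold, 2.06-fold and 1.97-fold). Against C1-sgControl 3 rose and 4 fell in C1-sgEED-Epi and 3 of each in C1-sgKMT2D-Epi, where CREB1 was 3.77-fold higher and RFXANK 1.97-fold lower. Of the 16 other proteasome genes 5 were lower in C2 and 2 with EED, none higher, and 6 (C1-sgEED-Epi) and 7 (C1-sgKMT2D-Epi) higher than in C1-sgControl. Of 5 chaperones of class I loading, 4 rose in C2, 3 with EED and 0 with KMT2D, where CANX (calnexin) fell 1.70-fold. CALR (calreticulin) rose 1.48-fold in C2 and 2.02-fold with EED. Both epithelial comparisons with C1-sgControl had 2 chaperones higher and 2 lower.

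Endosomal proteases changed in both directions in the 3 transitions. Of 6 tested, 3 rose and 2 fell in C2, 2 rose and 2 fell with EED, and 3 rose and 1 fell with KMT2D. CTSL (cathepsin L) rose 5.57-fold, 1.58-fold and 1.80-fold, while CTSV (cathepsin V) fell 6.83-fold, 4.75-fold and 9.27-fold. Against C1-sgControl 2 fell in C1-sgEED-Epi and 4 in C1-sgKMT2D-Epi. Of 6 NKG2D ligands of the ULBP family 1 rose and 1 fell in C2, 2 and 2 with EED, and 3 and 1 with KMT2D, with ULBP1 3.60-fold higher with EED and 2.89-fold with KMT2D. In both epithelial comparisons with C1-sgControl 3 of 6 fell. Among 4 class I-like molecules, MR1, which presents vitamin B metabolites, rose 4.37-fold with KMT2D, and HFE, a regulator of iron uptake, rose 1.5-fold in C2, 1.75-fold with EED and 3.52-fold with KMT2D. That list had 1 up and 1 down in C2, 2 and 1 with EED, 3 and 1 with KMT2D, 0 and 2 in C1-sgEED-Epi and 1 and 3 in C1-sgKMT2D-Epi.

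Of 12 co-stimulatory and checkpoint ligands, 8 rose and 1 fell in C2, 4 rose and 1 fell with EED, and 4 rose and 4 fell with KMT2D. PDCD1LG2 (PD-L2), a ligand of the inhibitory receptor PD-1, rose 4.21-fold in C2, 1.47-fold with EED and 3.18-fold with KMT2D. CD274 (PD-L1), the other ligand, was 4.06-fold higher in C1-sgEED-Epi and 3.99-fold higher in C1-sgKMT2D-Epi than in C1-sgControl, at 31.3 and 31.6 CPM and 31.5 and 30.3 CPM against 9.27 and 6.21 CPM. The list held 3 up and 1 down, and 2 up and 2 down, in those epithelial comparisons. CD86, a co-stimulatory ligand of T cells, fell with EED, from 3.08 and 4.00 to 0.0726 and 0.132 CPM. CD86 was at 1.03 and 1.27 CPM in C1-sgKMT2D-Epi and at 0 in C1-sgKMT2D-Mes.

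The 5 genes whose levels followed NLRC5 most closely over the 16 libraries were SPOCD1 (Spearman rho 0.94), EPHB6 (0.92), FAM229B (0.91), PAM (0.90) and IGFBP5 (0.90), out of 13843 genes with a mean of at least 1 CPM. The libraries form 8 groups, so these values are descriptions without a test. None of the 5 is among the 32 genes. HLA paralogs are near copies of each other, the alleles of HMLER can differ from the reference, and how reads mapping to several places were counted is not given in the sources used here. Exon overlaps add to this for HLA-B (18.9%, with HLA-C and a gene on the opposite strand), HLA-G (25.8%), TAP2 (32.3%), PSMB8 (20.6%), PSMB10 (34.8%) and CIITA (23.4%), so levels of these genes are uncertain to that extent.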

How the data were processed

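Gene counts of 16 libraries were used as deposited. The authors aligned reads to GRCh38 with STAR 2.7.1a and counted them per gene with featureCounts, per the submitters' processing notes. The annotation release, strand setting and treatment of reads mapping to several places are not given in the sources used here. Symbols, exon lengths and GC content came from GENCODE 29, which holds 56868 of 60448 genes (94.1%).

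The test was edgeR 4.0.16's robust quasi-likelihood test (R 4.3.3) on genes passing filterByExpr, with TMM factors and all 16 libraries in 1 fit of 8 group means, leaving 8 residual degrees of freedom. Calls needed p under 0.05 after Benjamini-Hochberg adjustment over 18285 genes, in 11 pairs of groups and 3 interactions. SE is the log2 change divided by the root of the F statistic. Genes at 0 were given a floor of 3 counts per library. The script was tested on simulated data. Alternatives were RLE scaling, no low-count filter, a replicate block, a GC and length correction (splines with 4 degrees of freedom), only the compared groups, DESeq2 1.42.0, C1 as the control, and each library left out. Figures used Python 3.11.15 and matplotlib 3.10.9. Floors cover counting error only, while SEs include the spread between libraries.

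All 32 members are accounted for. Values per library are given for members called in a transition and for class II genes with at least 1 CPM in any group. Other lists are given as counts, with at most 4 named genes per list and comparison, taken from the called ones with the largest absolute log2 change and at least 1 CPM in the higher group. Genes most like NLRC5 were the 5 with the highest Spearman rho. The members and lists were chosen with earlier results of these data known. CIITA failed the filter, so genes most like it were not sought. The values of CD74, CIITA, HLA-DQA1 and LAPTM5 and the printed promoters were chosen after values were seen.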

Additional observations from a re-analysis of the deposited data

Results flagged for a closer look

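The change from epithelial to mesenchymal cells differed between cell backgrounds for 33 pairs of gene and interaction, each tested as an interaction in edgeR and called at an adjusted p under 0.05; values are log2 differences. For the KMT2D transition minus the C2 transition they were HLA-B 2.84, HLA-C 1.12, HLA-E 1.36, HLA-F 3.72, PSMB8 0.89, PSME2 0.71, NLRC5 1.67, MICB -0.86, HLA-DPA1 4.82, HLA-DPB1 10.36, HLA-DMA 2.56 and CTSS -3.45.

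For the EED transition minus the C2 transition they were HLA-B 1.69, HLA-F 3.74, TAP2 -0.79, PSMB9 -1.26, MICA -0.65, HLA-DPA1 5.75, HLA-DPB1 10.34, HLA-DQB1 6.80, HLA-DOA 5.92 and CTSS -4.42. HLA-DPB1 and HLA-DQB1 were at 0 in C2-Mes, so the sizes of their differences depend on the prior count. HLA-DPA1 had 5 and 0 counts in C2-Mes. HLA-DOA had 4 and 2 counts there and 1 and 0 in C1-sgEED-Epi. The sizes for HLA-DPA1 and HLA-DOA therefore rest on few counts as well.

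For the KMT2D transition minus the EED transition they were HLA-B 1.15, HLA-E 1.06, TAP1 1.10, TAPBP 0.81, ERAP2 0.87, PSMB8 1.65, PSMB9 1.625, PSME1 1.07, NLRC5 2.26, MICB -0.79 and HLA-DMA 2.30. Groups of 2 libraries are too small for the check of single outlying libraries.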

How the results depend on the processing

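The fit was rerun under each alternative for 196 called changes of single members. Of 2122 alternative values 1803 kept direction and call, 312 kept direction without passing, and 7 changed sign. 104 of the 196 kept both under every alternative run. With C1 as the control, ERAP2 (-0.38) and CTSS (-0.35) changed sign in C1-sgEED-Epi, as did ERAP2 (-0.77, adjusted p = 0.0052) and CTSS (-0.49) in C1-sgKMT2D-Epi. With the GC and length correction HLA-C (0.22), ERAP2 (-0.17) and CTSS (-0.14) changed sign in C1-sgKMT2D-Epi against C1-sgControl. The causes were not tested.

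When only the compared groups were fitted, which uses fewer samples, counts of called members moved by over 1.5 times in comparisons with C2-Mes. They went from 15 to 5 for C2-Mes vs C2-Epi and from 13 to 5 for C1-sgKMT2D-Mes vs C2-Mes. Such fits gave 10 against 14 for C1-sgEED-Mes vs C2-Mes, 23 against 23 for the KMT2D transition and 18 against 13 for C2-Epi vs C1. The SD of the log2 difference between replicates was 0.890 in C2-Mes and at most 0.493 elsewhere. The main fit shares its spread per gene among all groups, and the cause was not tested. With C1 as the control the count for C1-sgEED-Epi went from 18 to 9. Leaving out 1 library gave 9 to 17 for C2-Mes vs C2-Epi (9 without C2-Epi replicate 1), 6 to 9 for C2-Epi vs C1 (8 without C1 replicate 2 or C2-Epi replicate 1, 6 without C2-Epi replicate 2), 5 to 12 for C1-sgEED-Epi vs C1-sgKMT2D-Epi (8 without C1-sgEED-Epi replicate 2, 5 without C1-sgKMT2D-Epi replicate 1), 7 to 10 for C1-sgEED-Mes vs C1-sgKMT2D-Mes (7 without either C1-sgKMT2D-Mes library), and 6 to 12 for the interaction of KMT2D and EED (7 without C1-sgEED-Mes replicate 2 or C1-sgKMT2D-Mes replicate 1, 6 without C1-sgKMT2D-Epi replicate 1). A group left with 1 library is assumed to vary like the others.

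Same-numbered libraries did not deviate together: over 28 pairs of groups the correlation of their deviations ran from -0.37 to 0.34, with 4 over 0.1. A replicate block gave 14 called members for C2-Mes vs C2-Epi, 16 for the EED transition and 22 for the KMT2D transition, against 15, 17 and 23 without it, with PSMB10, HLA-DRB1 and TAP1 not passing in turn. Depth limits the class II genes: 3 counts per library correspond to group floors of 0.110 to 0.136 CPM, so changes below that level were not detectable.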
